A study of Phaffia rhodozyma with 6 samples.

Results

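Sequence-specific transcription factors bind short DNA motifs near genes and raise or lower their transcription. In fungi the most numerous are zinc cluster proteins, whose binuclear Zn(2)-C6 domain is largely a fungal invention and includes Gal4 of Saccharomyces cerevisiae. Other families hold regulators of stress and sulfur supply (bZIP), sterol and phospholipid synthesis (helix-loop-helix, to which the sterol regulator SREBP belongs), nitrogen, iron and light responses (GATA), mating (homeobox and HMG box) and the cell cycle (forkhead). The genes described here were taken by words in the name that the authors' table gives them. These words include Zn(2)-C6, basic-leucine zipper, bZIP, helix-loop-helix, homeobox, forkhead, GATA, HMG box and the bare words transcription factor. Names with TFII, elongation, initiation, histone, white collar or heat shock were left out. The rule found 138 of 6363 genes, and all 138 were tested by the authors.

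The samples are 6 fermenter cultures of Phaffia rhodozyma, a yeast that makes the carotenoid astaxanthin, in late exponential growth, when astaxanthin formed fastest. BPAX-A1, a mutagenised astaxanthin overproducer, and CBS6938, the wild type, were grown in 3 cultures each, all on sucrose in defined medium at pH 5.5, 20 °C and 70% dissolved oxygen. Which mutations BPAX-A1 carries is not given here. The study asked which transcripts differ between the strains. The authors' deposited table gives 1 FPKM value (fragments scaled to transcript length and to the size of the library) per gene for each of 2 conditions, called q2 and q1, with Cuffdiff's p-value and q-value. No source used here ties q2 or q1 to a strain, so a gene called higher or lower in q2 cannot be said to be higher or lower in BPAX-A1.

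The authors' deposited table is the source of every FPKM value, log2 ratio of q2 over q1, p-value and q-value given for a gene. A gene was called when its q-value, adjusted over the 6272 tested genes, was below 0.05. With 1 value per condition, neither the spread between cultures nor the depth of a library could be read. The standard errors are those implied by Cuffdiff's p-value and restate that test. The FPKM values of all genes summed to 2161510 in q2 and 1030220 in q1, a ratio of 2.10, and the median gene above 1 FPKM in both had a log2 ratio of 0.11. Scaling both conditions to the same sum would lower every log2 ratio by 1.07 on the log2 scale, before any pseudocount.

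Few transcription factor genes were called. Of the 138, 4 were called, 3 higher and 1 lower in q2, or 2.90%, while 5.53% of all tested genes were called. For genes higher in q2 the background was 3.65%, and for genes lower it was 1.88%. Among tested genes with both a mean FPKM and a locus length between the members' lower and upper quartiles, 43 of 815 were called (5.28%). At an unadjusted p below 0.05 there were 19 transcription factor genes, which is 13.8% against 14.6% of all tested genes and 13.5% of those 815. Of the 19, 14 had the higher value in q2 and 5 the lower, with backgrounds of 10.5% and 4.13%. At a q-value below 0.01 the count was 2 against a background of 3.06%, and below 0.10 it was 9 against 7.3%, with 5 higher and 4 lower in q2. The share of the 138 genes below this looser threshold was thus near that of the whole table.

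The 4 called genes were 3 zinc cluster genes and 1 GATA factor gene. The zinc cluster gene CED85628 (scaffold 249, 2197536 to 2201856) had 58.6 FPKM in q2 and 15.7 FPKM in q1 in the authors' deposited table. Its log2 ratio of 1.90 was the highest of the 138, with an implied standard error of 0.55 (Cuffdiff q 0.0167). The zinc cluster gene CED83711 (scaffold 69, 554014 to 556123) had 38.4 FPKM in q2 and 10.5 FPKM in q1, a log2 ratio of 1.86 with an implied standard error of 0.50 (Cuffdiff q 0.00705). Both were expressed at a modest level in q1 and rose more than 3-fold in q2. No gene name beyond the domain is given for either, so the targets of these factors are not known from the table.

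CDZ96439 (scaffold 54, 171348 to 173858) is named as a GATA-4/5/6 transcription factor, a label taken from animal proteins with the same zinc finger. Fungal proteins with GATA fingers regulate, among others, nitrogen use and iron uptake in Aspergillus and Neurospora. Its value was 62.6 FPKM in q2 and 18.4 FPKM in q1 (log2 ratio 1.77, implied standard error 0.52, Cuffdiff q 0.0180). In q2 it was the highest of the 7 GATA genes, while in q1 it stood below CDZ97240, CDZ97224 and CED85493. The gene that fell was the zinc cluster gene CED82860 (scaffold 52, 629852 to 631596), with 16.0 FPKM in q2 and 57.3 FPKM in q1 in the authors' deposited table. It was 3.58-fold lower (log2 ratio -1.84, implied standard error 0.51, Cuffdiff q 0.00980). In q1 it had the highest level of all 49 zinc cluster genes. Scaling both conditions to the same sum lowers every log2 ratio by 1.07, so it could not turn any of these 4 signs. It did change the sizes. After scaling, with 1 added to each value, CED85628 stood at 0.79, CED83711 at 0.74 and CDZ96439 at 0.67 on the log2 scale, each below 2-fold. CED82860 stood at -2.75.

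**Figure D1:**
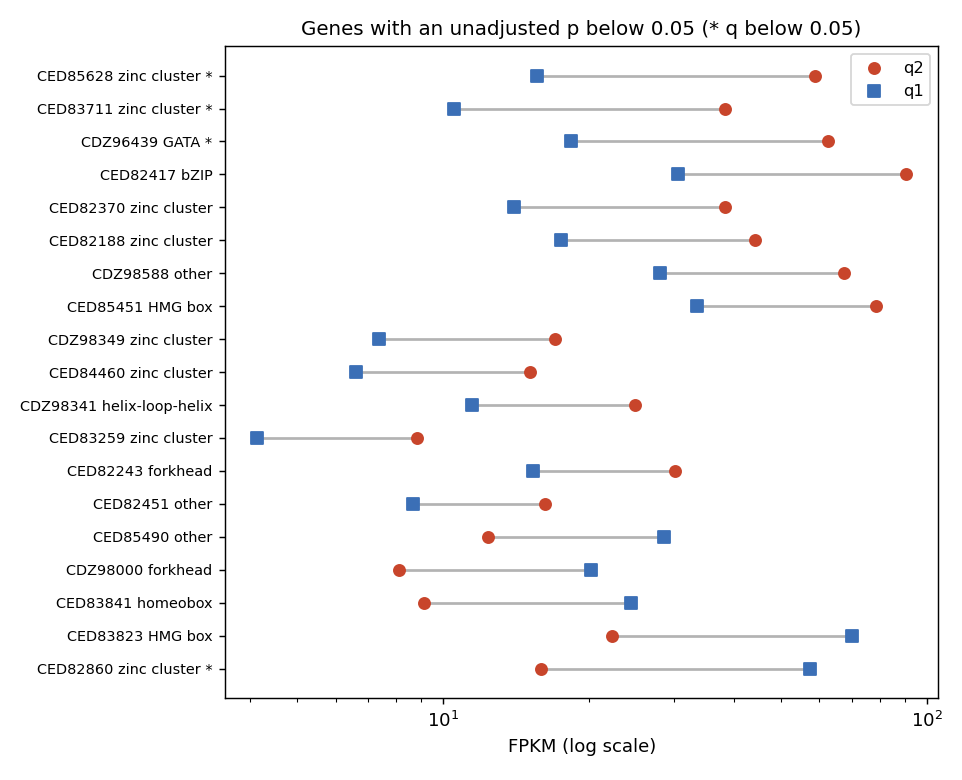
FPKM of the 19 transcription factor genes with an unadjusted Cuffdiff p below 0.05, on a log axis, with q2 as circles and q1 as squares, 1 value per condition and no error bars. Asterisks mark the 4 called genes. In 14 genes the q2 value lies to the right of the q1 value, and in the 5 genes at the bottom to the left.

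The genes on either side of the 4 called genes were not called. Of these 8 neighbours, 4 had a ratio of the same sign as the factor gene beside them. CED83711 lies 225 bases before the hypothetical protein gene CED83712, which had 41.2 FPKM in q2 and 16.4 FPKM in q1 (log2 ratio 1.33, Cuffdiff q 0.0873). The GATA gene CDZ96439 lies 998 bases from the helix-loop-helix gene CDZ96440, which had 27.9 FPKM in q2 and 38.7 FPKM in q1 (log2 ratio -0.47). Of the 5 pairs of transcription factor genes that are direct neighbours, this was the pair with the widest gap in log2 ratio. No transcription factor locus overlapped another locus in the table.

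Zinc cluster genes made up 49 of the 138, and 3 of the 49 were called (6.12%), near the 5.53% of all tested genes. Beside the called genes, 5 more had an unadjusted p below 0.05, each with its higher value in q2. With the called genes this made 8 of the 49 (16.3%), near the 14.6% of all tested genes. Of the 8, 7 were higher in q2, with a background of 10.5%, and 1 was lower, with a background of 4.13%. In the authors' deposited table CED82370 had 38.3 FPKM in q2 and 14.0 FPKM in q1, and CED82188 had 44.2 FPKM in q2 and 17.6 FPKM in q1. Their log2 ratios were 1.45 and 1.33, and both had a Cuffdiff q of 0.0558, just above the threshold. CDZ98349 (17.1 FPKM in q2, 7.38 in q1), CED84460 (15.2 in q2, 6.61 in q1) and CED83259 (8.85 in q2, 4.14 in q1) had log2 ratios of 1.10 to 1.21 and Cuffdiff q-values of 0.123 to 0.246. These 3 were among the less expressed factors in either condition. The other zinc cluster genes, down to CED85560 with 2.12 FPKM in q2 and 2.69 FPKM in q1, had log2 ratios between -0.86 (CED85144) and 0.88 (CED84904). The median log2 ratio of the family, with a pseudocount of 1 FPKM, was 0.26, against 0.10 over all genes. By mean level the highest zinc cluster genes were CED82689 (34.9 FPKM in q2, 51.1 in q1) and CED84135 (40.4 in q2, 42.6 in q1), neither of them called.

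With 5.53% of all tested genes called and 14.6% below an unadjusted p of 0.05, small families would hold few of either. A count of 0 called does not set this family, or the smaller ones below, apart. None of the 12 bZIP genes was called by Cuffdiff, and 1 had an unadjusted p below 0.05. That gene, CED82417 (scaffold 33, 1319301 to 1322122), had 90.6 FPKM in q2 and 30.6 FPKM in q1 in the authors' deposited table. Its log2 ratio was 1.57 with an implied standard error of 0.69, wider than that of the called genes (Cuffdiff q 0.214). The bZIP gene with the highest level, CED82998, had almost the same value in both conditions, with 683 FPKM in q2 and 695 FPKM in q1. Its implied standard error of 0.79 leaves an interval of -1.58 to 1.53 on the log2 scale. CDZ97122 had 349 FPKM in q2 and 219 FPKM in q1 (log2 ratio 0.67, Cuffdiff q 0.703), and CDZ98869 had 95.1 FPKM in q2 and 54.8 FPKM in q1. The gene named for FOSB/c-Fos, the animal AP-1 factors, was at 41.3 FPKM in q2 and 39.3 FPKM in q1 (CDZ98072). The family median of 0.40, or 0.30 relative to all genes, came from 9 genes above and 3 below a ratio of 1. For comparison, 57.2% of all genes had a ratio above 1. After scaling to the same sum, 1 of the 12 bZIP genes (8.33%) was higher in q2, against 16.9% of all genes.

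A protein outside the bZIP names carries the name of a sulfur regulator. CED82071 is called regulatory protein cys-transcription factor, and CYS-3 of Neurospora crassa switches on sulfur uptake and use. By the mean of both conditions it was the fifth most expressed of the 138 genes, with 163 FPKM in q2 and 308 FPKM in q1 in the authors' deposited table. Its log2 ratio of -0.92 had an implied standard error of 0.70 and did not pass the test (Cuffdiff q 0.605).

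The shares over all tested genes were 5.53% called and 14.6% with an unadjusted p below 0.05. Of the 10 helix-loop-helix genes, 0 were called by Cuffdiff and 1 had an unadjusted p below 0.05. In the authors' deposited table that gene, CDZ98341, had 25.0 FPKM in q2 and 11.5 FPKM in q1 (log2 ratio 1.12, implied standard error 0.46, Cuffdiff q 0.164). CED84028 had the greatest ratio of the family, with 108 FPKM in q2 and 45.4 FPKM in q1. Its log2 ratio of 1.25 had an implied standard error of 0.83, among the widest of the 138 (Cuffdiff q 0.526). CDZ97415 had 108 FPKM in q2 and 130 FPKM in q1, and CED82719 had 87.0 FPKM in q2 and 97.6 FPKM in q1. CED83562, named for the animal lysosome regulator TFEB, had 54.1 FPKM in q2 and 35.5 FPKM in q1. CED82093, named for the animal factor EBF/Olf-1, had 71.8 FPKM in q2 and 49.7 FPKM in q1. The table gives none of the helix-loop-helix genes the name of SREBP.

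The homeobox and HMG box genes were split in sign. Among 5 homeobox genes 0 were called by Cuffdiff, against 5.53% of all tested genes. CED83841 (scaffold 69, 945531 to 947189) came closest to the threshold of those among the 138 that were not called, with 9.14 FPKM in q2 and 24.5 FPKM in q1 in the authors' deposited table (log2 ratio -1.42, implied standard error 0.48, Cuffdiff q 0.0514). The least expressed of the 138 genes was the homeobox gene CDZ96543, at 0.725 FPKM in q2 and 0.667 FPKM in q1. A further gene named for MEIS1, CDZ96688, had 5.58 FPKM in q2 and 3.82 FPKM in q1. CDZ98264 and CED82814 had log2 ratios of -0.10 and -0.11.

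Cuffdiff called 0 of the 8 HMG box genes, and 2 had unadjusted p-values below 0.05, in opposite directions. Over all tested genes the shares were 5.53% called and 14.6% below that p-value. The HMG-box transcription factor CED83823 had 22.3 FPKM in q2 and 70.0 FPKM in q1 (log2 ratio -1.65, implied standard error 0.59, Cuffdiff q 0.0756). The HMG-box transcription factor CED85451 had 78.6 FPKM in q2 and 33.4 FPKM in q1 (log2 ratio 1.23, implied standard error 0.53, Cuffdiff q 0.195). By mean level the 3 highest genes of this family belong to the 6 highest of all 138, and each was named only as an HMG box-containing protein. Small proteins of this kind, such as Nhp6 of Saccharomyces cerevisiae, bend DNA with little sequence preference. In the authors' deposited table CED85615 had 566 FPKM in q2 and 820 FPKM in q1, CED82157 had 393 in q2 and 580 in q1, and CDZ98484 had 170 in q2 and 250 in q1. Their log2 ratios lay between -0.56 and -0.54, and their Cuffdiff q-values between 0.675 and 0.771. CDZ98102, named for SOX5, had 2.45 FPKM in q2 and 1.29 FPKM in q1.

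The 4 forkhead genes also went both ways, with 0 called by Cuffdiff, against 5.53% of all tested genes. Forkhead proteins of Saccharomyces cerevisiae act in the cell cycle and, as Fhl1, at ribosomal protein genes. CDZ98000 had 8.12 FPKM in q2 and 20.2 FPKM in q1 in the authors' deposited table (log2 ratio -1.32, implied standard error 0.49, Cuffdiff q 0.0954). CED82243, named forkhead box protein j3, had 30.2 FPKM in q2 and 15.4 FPKM in q1, with a log2 ratio of 0.97 that turned to -0.09 when both conditions were scaled to the same sum. CDZ98669 (17.5 FPKM in q2, 16.6 in q1) and CED84856 (15.2 in q2, 15.9 in q1) had log2 ratios of 0.08 and -0.07. Among the other GATA genes, CED84071 had 18.9 FPKM in q2 and 10.4 FPKM in q1 (Cuffdiff q 0.374). CDZ97240 had 38.1 FPKM in q2 and 59.3 FPKM in q1, and CDZ97224 had 58.2 FPKM in q2 and 41.4 FPKM in q1, neither of them called.

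**Figure D2:**
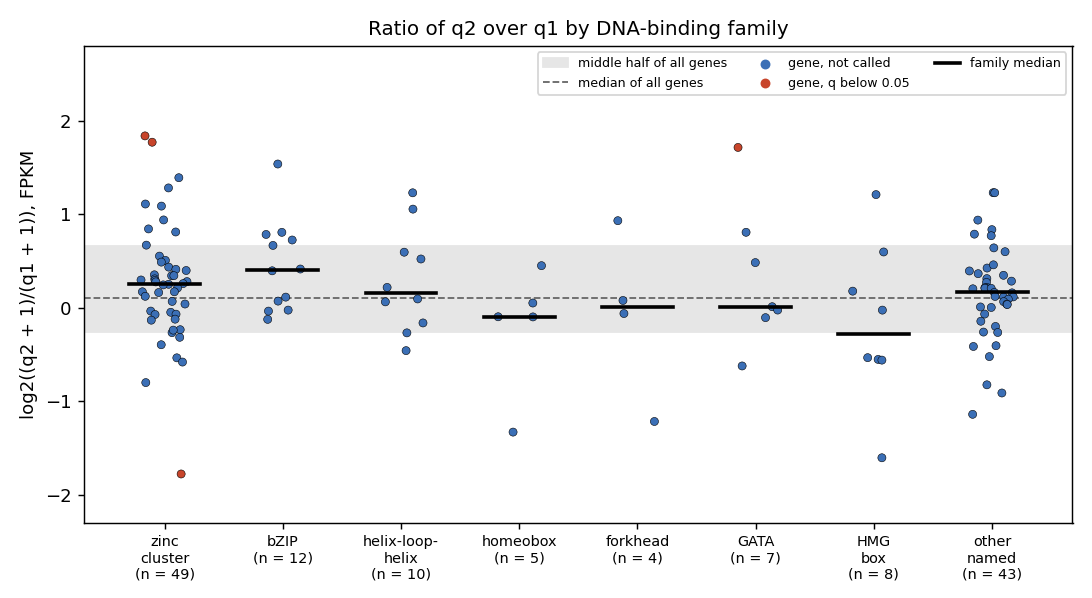
Log2((q2 + 1)/(q1 + 1)) of the 138 transcription factor genes by family, 1 point per gene, with bars at the family medians. The dashed line is the median of all genes and the grey band the range between their quartiles. The called genes are 3 zinc cluster points and 1 GATA point, and family medians run from -0.28 (HMG box) to 0.40 (bZIP).

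The remaining 43 genes carry no family word, and 0 of them were called by Cuffdiff, against 5.53% of all tested genes. At that share a group of this size would hold few calls. They comprise 13 named for other regulators, most of them with another kind of DNA-binding domain, 8 with only the fungal transcription factor domain that often accompanies a zinc cluster, 2 called just transcription factor, and 20 whose names point to other machinery. At an unadjusted p below 0.05 there were 2 higher and 1 lower, which is 6.98% of the 43 against 14.6% of all tested genes. CED85490, with the fungal domain, had 12.4 FPKM in q2 and 28.6 FPKM in q1 in the authors' deposited table (log2 ratio -1.20, implied standard error 0.46, Cuffdiff q 0.112). CED82451, with the same domain, had 16.2 FPKM in q2 and 8.65 FPKM in q1, a log2 ratio of 0.91. That sign, too, turned on scaling to the same sum, to -0.14. CDZ98588 is named as an alpha-1,2 glucosyltransferase as well as a transcriptional activator, and its counterpart in Saccharomyces cerevisiae, Die2/Alg10, adds the last glucose to the N-glycan precursor. It had 67.4 FPKM in q2 and 28.2 FPKM in q1 (log2 ratio 1.26, Cuffdiff q 0.130).

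Several of these genes are named for regulators whose roles are known in other fungi, and none of them was called. Opi1, a corepressor of phospholipid genes in Saccharomyces cerevisiae that acts when inositol is present, had 20.0 FPKM in q2 and 12.8 FPKM in q1 in the authors' deposited table (CDZ96200, Cuffdiff q 0.661). The gene named for prz1, the calcineurin-responsive factor of Schizosaccharomyces pombe, had 25.1 FPKM in q2 and 26.3 FPKM in q1 (CDZ98308). The MADS box gene CED84976 had 23.3 FPKM in q2 and 22.7 FPKM in q1, and the RFX family gene CDZ97403 had 14.4 FPKM in q2 and 12.7 FPKM in q1. RFX proteins repress DNA damage genes in Saccharomyces cerevisiae. The gene named c2h2 transcription factor, CED84728, had 39.9 FPKM in q2 and 39.8 FPKM in q1, the ratio closest to 1 among the 138. CED82054, named for the CCAAT displacement protein, had 49.2 FPKM in q2 and 59.1 FPKM in q1.

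The CCAAT-binding HAP complex activates respiratory genes in Saccharomyces cerevisiae. In the authors' deposited table hap3, a DNA-binding subunit, had 31.3 FPKM in q2 and 27.1 FPKM in q1 (CDZ98587, log2 ratio 0.21, implied standard error 0.47). The gene with the Hap4 heteromerisation domain had 14.8 FPKM in q2 and 17.1 FPKM in q1 (CDZ96351, log2 ratio -0.21, implied standard error 0.43). A further HAP subunit gene, CED82015, is outside the 138 because its name holds none of the words, and was found through its annotation as a DNA-binding transcription factor. It was called lower in q2, with 18.8 FPKM in q2 and 53.7 FPKM in q1 (log2 ratio -1.52, implied standard error 0.48, Cuffdiff q 0.0348). Whether the HAP subunits differed from each other in their response was not tested.

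Among the 20 genes whose names point to other machinery, 16 (80%) had a higher and 4 a lower value in q2. Over all genes, 57.2% had the higher value in q2. After scaling to the same sum, 2 of the 20 (10%) did, against 16.9% of all genes. The 20 were sorted by hand with the values in view. An unadjusted p below 0.05 was found for 1 of the 20, against 14.6% of all tested genes. CDZ98178, named for the apoptosis antagonizing factor AATF, had 97.5 FPKM in q2 and 41.0 FPKM in q1 (log2 ratio 1.25, Cuffdiff q 0.395). The transcription factor IIS domain gene CED82044 had 163 FPKM in q2 and 234 FPKM in q1, and the predicted pilin-like factor CED84281 had 200 FPKM in q2 and 104 FPKM in q1 in the authors' deposited table. Spt20, a subunit of the SAGA coactivator, had 33.0 FPKM in q2 and 32.9 FPKM in q1 (CED85445). The Pol I factor UAF (CED83876) had 17.4 FPKM in q2 and 23.4 FPKM in q1, and the Polycomb-type repressor EED/ESC (CDZ96969) had 25.2 FPKM in q2 and 14.4 FPKM in q1. None of these was called.

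**Figure D3:**
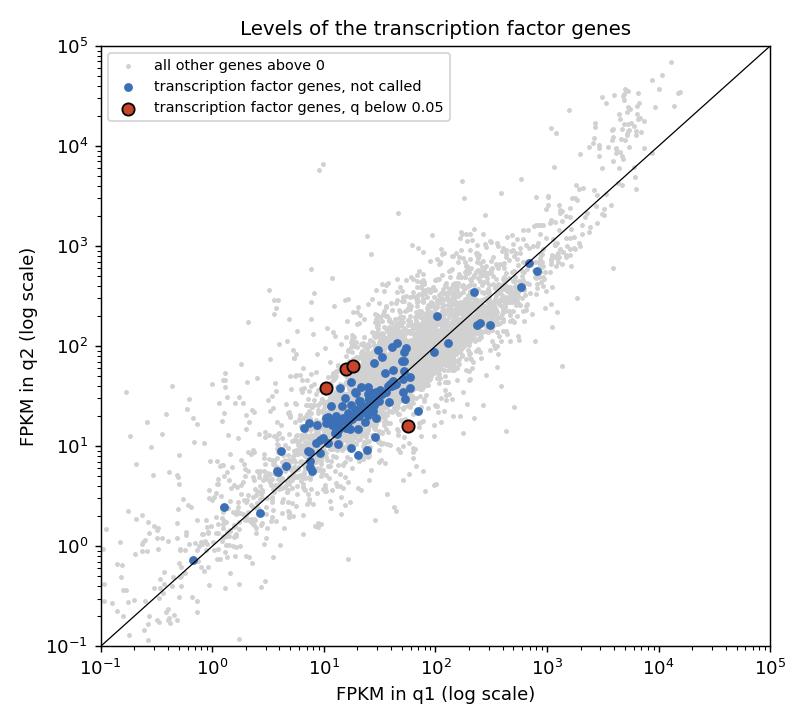
FPKM in q2 against FPKM in q1 for the 138 transcription factor genes (coloured) and the other genes that fall within the axes (grey), on log axes with the line of equal values. The transcription factor genes lie between 0.725 and 683 FPKM in q2 and between 0.667 and 820 FPKM in q1.

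As a group, the transcription factor genes were expressed at low to moderate levels. Their median was 25.0 FPKM in q2 and 22.2 FPKM in q1, while the median of all genes was 45.1 FPKM in q2 and 38.2 FPKM in q1. A mean of 10 to 60 FPKM over the conditions was found for 107 of the 138, with 14 below that range and 9 above 100 FPKM. Their loci were long, with a median of 3176 bases against 1977 bases over all genes. The FPKM values of the 138 genes summed to 6543 in q2 and 6452 in q1, so their share of the total was 0.303% in q2 and 0.626% in q1. The sum over the transcription factor genes was thus nearly equal in both conditions while the total of the table differed 2.10-fold. Without scaling, the family sums within it did not all differ in the same direction, which was not tested. The HMG box genes summed to 1301 FPKM in q2 and 1821 FPKM in q1, and the homeobox genes were also lower in q2. The sums of the other families and of the genes without a family word were higher in q2, some of them only slightly. The forkhead genes summed to 71.0 FPKM in q2 and 68.0 FPKM in q1, and the genes without a family word to 1670 and 1631 FPKM. As a share of the total of the table, each family and the genes without a family word were lower in q2. The most frequent annotation term among the members was that of RNA polymerase II-specific DNA-binding factors. Of the 54 genes that carry it, 49 are among the 138. Nearly all of these 49 are zinc cluster genes, so the term largely repeats a word of the rule.

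A higher value in q2 was found for 93 of the 138 genes (67.4%) and for 57.2% of all genes. Relative to the median log2 ratio of genes above 1 FPKM, 80 of the 138 (58.0%) stood above it, against 50.0% of all genes. After scaling to the same sum, 14 of the 138 (10.1%) had a higher value in q2, against 16.9% of all genes. The balance of signs thus depends on the scaling, for the 138 as for the whole table. The median log2 ratio with a pseudocount of 1 FPKM was 0.17 over the 138 and 0.10 over all genes, a difference of 0.07. The distance between the quartiles was 0.58 for the 138 on this scale against 0.92 over all genes. With the same pseudocount, differences over 2-fold were found in 18 of the 138 (13.0%) against 21.3% of tested genes. They were 13 higher in q2, with a background of 16.8%, and 5 lower, with a background of 4.5%. Among the 815 tested genes of like level and length, which include members, the share was 12.4% and the distance between the quartiles was 0.62. The narrower spread of the transcription factor genes was thus near that of genes of their level and length.

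**Figure D4:**
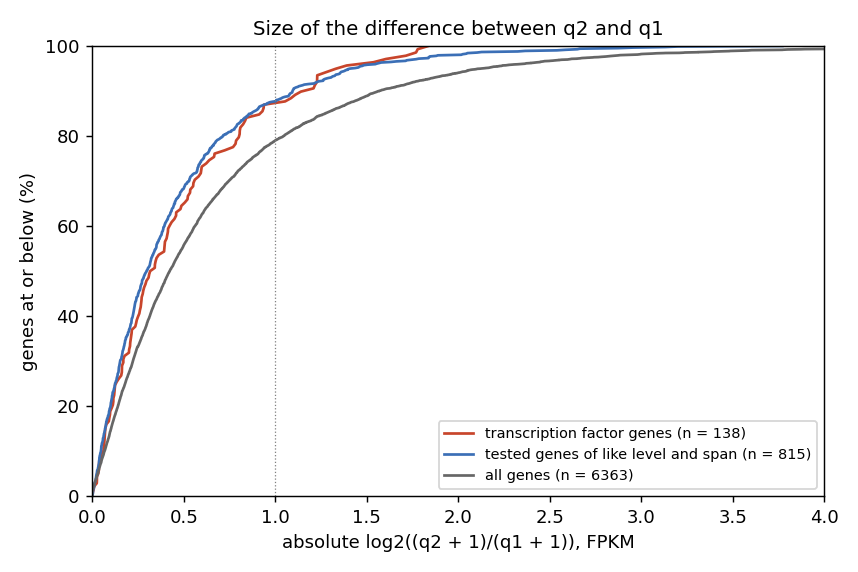
Cumulative share of genes, in percent, by the absolute log2((q2 + 1)/(q1 + 1)), for the 138 transcription factor genes, the 815 tested genes of like mean FPKM and locus length, and all genes. The dotted line marks 2-fold, which 13.0% of the transcription factor genes exceed. Their curve runs beside that of the 815 genes and above that of all genes.

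The largest absolute log2 ratio among the 138 was 1.90, and 252 of the 347 called genes of the whole table exceeded it. The called genes of the table had a median absolute log2 ratio of 2.30. The median implied standard error of the transcription factor genes was 0.48, with a range of 0.35 to 0.83, against 0.51 over all genes. For 118 of the 138 genes the implied 95% interval reached a 2-fold difference in at least 1 direction, and for 20 it lay within 2-fold. The low count of called genes therefore does not show that most factor genes had equal levels.

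**Figure D5:**
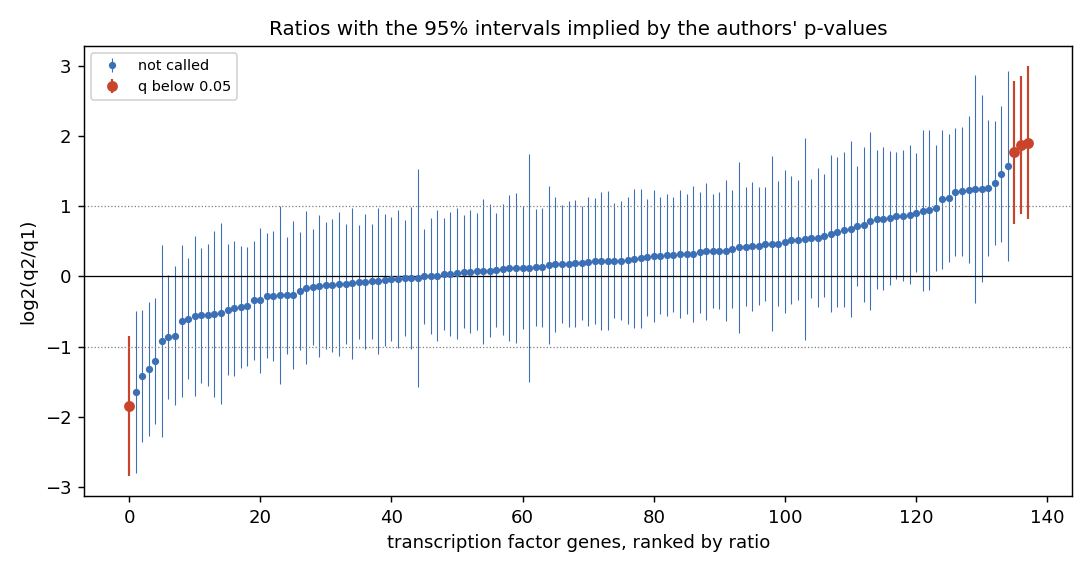
Log2 ratios of q2 over q1 from the authors' deposited table for the 138 transcription factor genes in rising order, with 95% intervals from the standard error implied by Cuffdiff's p-value. Dotted lines mark 2-fold. The called genes are the lowest and the 3 highest, and 118 intervals touch or cross a dotted line.

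Related genes of the transcription machinery, listed by words in their names, were not called. Cuffdiff called 0 of 8 Mediator genes, 0 of 6 RNA polymerase II subunit genes and 0 of 20 SAGA and SWI/SNF genes. With 5.53% of all tested genes called, lists of these sizes would hold few calls, and a count of 0 does not set them apart. The Mediator and the SAGA lists each hold 1 of the 138. At an unadjusted p below 0.05 the counts were 0, 1 and 0, the 1 being the Rpb4 gene CED84646, with 386 FPKM in q2 and 74.5 FPKM in q1 in the authors' deposited table (log2 ratio 2.37, Cuffdiff q 0.152). The median log2 ratio was 0.13 for Mediator, -0.04 for the polymerase subunits and 0.04 for SAGA and SWI/SNF. Of the 6 genes that the rule left out in spite of the words transcription factor in their names, 1 was called. It is a heat shock transcription factor gene, CDZ96670, 11.1-fold lower in q2, a difference larger than that of any of the 138. The other heat shock transcription factor gene, CDZ96802, had 18.5 FPKM in q2 and 16.4 FPKM in q1.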

How the data were processed

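RNA of 6 cultures was sequenced from libraries made with a stranded mRNA kit, per the labels' protocols. FastQC, Trimmomatic, TopHat, Cufflinks and Cuffdiff are named in the submitters' processing notes, without versions. The genome build, annotation, strand setting and normalization between libraries are not given. Per the file headers, the authors' table holds a value per condition without its unit, taken here as the FPKM that Cuffdiff writes in that place, a log2 ratio, a test statistic (the authors' score per gene, not used here), a p-value and the q-value from it. The p-values have a floor of 5e-05, which 0 transcription factor genes reached. Recomputed log2 ratios and Benjamini-Hochberg q-values differed from the deposited ones by at most 1.38e-05 and 5.26e-07.

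Implied standard errors are the absolute log2 ratio divided by the normal quantile of the two-sided p-value, and intervals are 1.96 of them to either side. The calculation was checked on simulated data. Starts are the file's start plus 1, on numbered scaffolds of a build that is not named; exon and UTR detail is not used here. Families were set from words in the names, zinc cluster first, and the 43 others were sorted by hand with the values in view. Genes are named by a rule (called, unadjusted p below 0.05, the 3 highest and the greatest ratio per family, and names of known regulators, up to 60). The rule did not fix the words that mark a known regulator. They were picked after the values had been printed; a first set gave 64 genes, and 4 words (CA150, Dopey, CCR4 and CAATT) were then dropped to meet the limit. That part of the naming is thus a choice and not a result of the rule. Extremes, neighbours and related genes outside the 60 were also named after their values were seen, as were the words of the related lists, the 815 genes of like level and length, the intervals and the limit of 0.1 log2 for a shifted median. The members and lists were chosen with earlier results of these data known. No sequence is printed. Python 3.11.15 with pandas 2.3.3 and SciPy 1.17.1 was used. Alternatives changed the threshold, the pseudocount, the filter, the scaling and the membership.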

Additional observations from a re-analysis of the deposited data

How the results depend on the processing

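The count of 4 called transcription factor genes became 2 at a q-value below 0.01, 9 below 0.10 and 19 at an unadjusted p below 0.05. It was 4 with a 2-fold minimum, with a mean of at least 1 or 10 FPKM and among the 95 genes with a family word. All 4 genes pass each of these limits, so that count could not change. With the annotation columns searched as well it was 6 of 149. The 2 added calls, both lower in q2, were CED82015 and the heat shock transcription factor gene CDZ96670. That wider search puts back genes that the rule left out for the words heat shock. The balance of 3 higher and 1 lower in q2 became 3 and 3 with that wider search and 5 and 4 at a q-value below 0.10. The median log2 ratio of 0.17 ran from 0.13 to 0.19 under other pseudocounts, the filter and the wider search. It was 0.070 centred on the median of all genes and -0.80 with each condition scaled to the same sum, where the median of all genes was -0.87. Centring also turned the medians of the forkhead genes, to -0.10, and of the GATA genes, to -0.093. Among the 19 genes below an unadjusted p of 0.05, scaling to the same sum turned the signs of CED82243 (-0.088) and CED82451 (-0.14). The other 74 of 76 recomputed ratios kept their sign, but most of them could not have turned. A pseudocount added to both conditions cannot turn a sign, and centring by 0.10 was too small to turn any of the 19. Scaling to the same sum lowers every ratio, so it could turn only genes higher in q2. No paired analysis was possible because the table holds 1 value per condition and 0 columns per culture, so leaving out each replicate was not run either. Library depth is unknown and limits every value, since no interval from counts could be made.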

Other observations

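DNA-binding proteins whose names lack the words of the rule were listed after the values were seen, by the words C2H2, homeodomain, velvet, APSES, copper fist, CCAAT-binding, swi5, ARID/BRIGHT and winged helix. Of these 27 genes, 2 were called by Cuffdiff, both lower in q2, and 8 had a higher value in q2 (29.6%, against 57.2% of all genes). The 7.41% called is near the 5.53% of all tested genes, of which 1.88% were called lower. The called genes were the HAP subunit CED82015 and a Velvet factor, CED85626, with 10.8 FPKM in q2 and 33.9 FPKM in q1 in the authors' deposited table (log2 ratio -1.66, Cuffdiff q 0.0057). The other Velvet factors had 86.8 FPKM in q2 and 81.1 FPKM in q1 (CED83830), and 17.6 FPKM in q2 and 22.6 FPKM in q1 (CDZ96963). The 5 genes with an APSES domain, a fungal DNA-binding domain found in regulators of the cell cycle and of morphology, had log2 ratios between -0.30 (CED84757, 113 FPKM in q2 and 140 in q1) and 0.17 (CED84291, 36.3 FPKM in q2 and 32.4 in q1). The copper fist gene CED83035, of a family that senses copper in Saccharomyces cerevisiae, had 28.3 FPKM in q2 and 23.8 FPKM in q1 in the authors' deposited table. The CCAAT-binding subunit CDZ98629 had 27.1 FPKM in q2 and 39.6 FPKM in q1 and was not called (Cuffdiff q 0.647).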
